A study of Mus musculus with 8 samples.

Results

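Triglyceride is built in fat cells by a short chain of enzymes, and the 10 genes described here encode enzymes of that chain: Gpd1 and Pck1 for the supply of glycerol phosphate, Gpam and Gpat4 for the first acyl transfer, Agpat2 and Agpat3 for the second, Lpin1 and Lpin2 for the removal of phosphate, and Dgat1 and Dgat2 for the last acyl transfer. They were chosen by name for their place in the pathway, and all 10 were found among the 34866 genes of the deposited table. RNA had been profiled by a 3′-end method (BRB-seq) in epididymal adipose tissue, a white fat pad of the abdomen, of male mice. The 4 control samples carry the genotype Aromatase flox/flox, in which the aromatase gene Cyp19a1 is flanked by sites for the recombinase Cre. The 4 knockout samples carry aP2-Cre;Aromatase flox/flox, so both groups share the floxed allele and the knockouts add Cre driven by the promoter of Fabp4, a gene of adipocytes that macrophages can express as well. A group with the transgene and no floxed allele was not analysed here, the labels used here give no age, and they do not say that each sample came from a separate animal, so the p-values measure the spread between these samples, which may be technical.

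Glycerol phosphate, the backbone of triglyceride, is acylated at one carbon to give lysophosphatidate and at the next to give phosphatidate. Lipins then remove the phosphate, and the diacylglycerol that is left receives its last fatty acid from a diacylglycerol acyltransferase. Phosphatidate and diacylglycerol are also the branch points to phospholipids. In white fat most of the fatty acid that enters the chain is stored, and loss of AGPAT2 or of lipin 1 is known to leave mice with too little fat.

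The libraries held 1538427 to 3053565 estimated counts. Cyp19a1 itself was at 1 to 5.017 estimated counts in the control and 0 to 4 in the knockout libraries, too few to check the deletion. The adipocyte marker Adipoq lay between 2110 and 3814 CPM (counts scaled to a common library size). The summed level of 16 adipocyte markers overlapped between the genotypes, with controls at 49231.2 to 65932.2 CPM and knockouts at 42149.0 to 61372.8 CPM. Fabp4, Cfd and Lpl weighed most in that sum, with control means of 18500, 13100 and 9630 CPM. Of these 16 markers 13 had a lower fitted level in the knockout, beside 50.3% of all tested genes. At an edgeR adjusted p under 0.05, 0 passed, beside 0.168% of all tested genes. The lowest adjusted p was that of Retn, the resistin gene (log2 fold change -0.65, edgeR adjusted p = 0.0731). Its groups did not overlap, at 2037 to 2753 CPM for controls and 1367 to 1714 CPM for knockouts. In that direction 1.72% of all tested genes separated. Of 8 epididymis markers, 5 were at 0 in every library. The sum of the 8 reached 3.8 CPM in control replicate 2 and 8.5 CPM in knockout replicate 3, the highest of each group. The summed level of 14 macrophage markers did not overlap, with controls at 960.3 to 1110.3 CPM and knockouts at 1392.2 to 1807.0 CPM. Lyz2 weighed most in that sum, with means of 379 CPM for controls and 682 CPM for knockouts. Without Lyz2 (363 CPM in control replicate 1, 696 CPM in knockout replicate 1) the summed levels overlapped. Of the 13 markers that were tested, 12 had a higher fitted level in the knockout, beside 6204 of 12480 tested genes. Cd68 and Lyz2 passed, beside 0.168% of all tested genes. Cd163 was lower (log2 fold change -0.19). It overlapped between the genotypes, as did Mrc1, C1qa, C1qb and C1qc. The other 8 tested markers separated upward, as 2.52% of all tested genes did. The share of counts on mitochondrial genes was 10.67 to 12.41% for controls and 8.70 to 10.12% for knockouts. Summed levels overlapped for 8 endothelial, 8 stromal, 6 mesothelial and 8 lymphocyte markers. Of the lymphocyte markers only 1 of 8 passed the filter on low counts. Their sums were 14.6 to 18.6 CPM for controls and 12.5 to 29.1 CPM for knockouts, too low for the overlap to say much. The part of any of these measures in the values below was not tested.

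None of the 10 enzymes passed the threshold between the genotypes (edgeR quasi-likelihood test, adjusted p under 0.05), which 0.168% of the 12480 tested genes passed. All 10 passed the filter on low counts. The fitted level was lower in the knockout for 8 of them, beside 50.3% of all tested genes, and the median log2 fold change was -0.23, beside -0.001 over all tested genes. At an unadjusted p under 0.05, 4 enzymes were lower (Gpd1, Agpat2, Agpat3 and Dgat1) and 0 were higher, where 2.87% of all tested genes were lower and 3.52% higher. That count fell to 0 without control replicate 3 and to 0 without knockout replicate 3, and it was 1 in the fit of all genes without a filter. DESeq2 and limma-voom likewise called 0 of the 10. In bulk tissue, fewer cells of a type and less RNA per cell cannot be told apart.

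**Figure D1:**
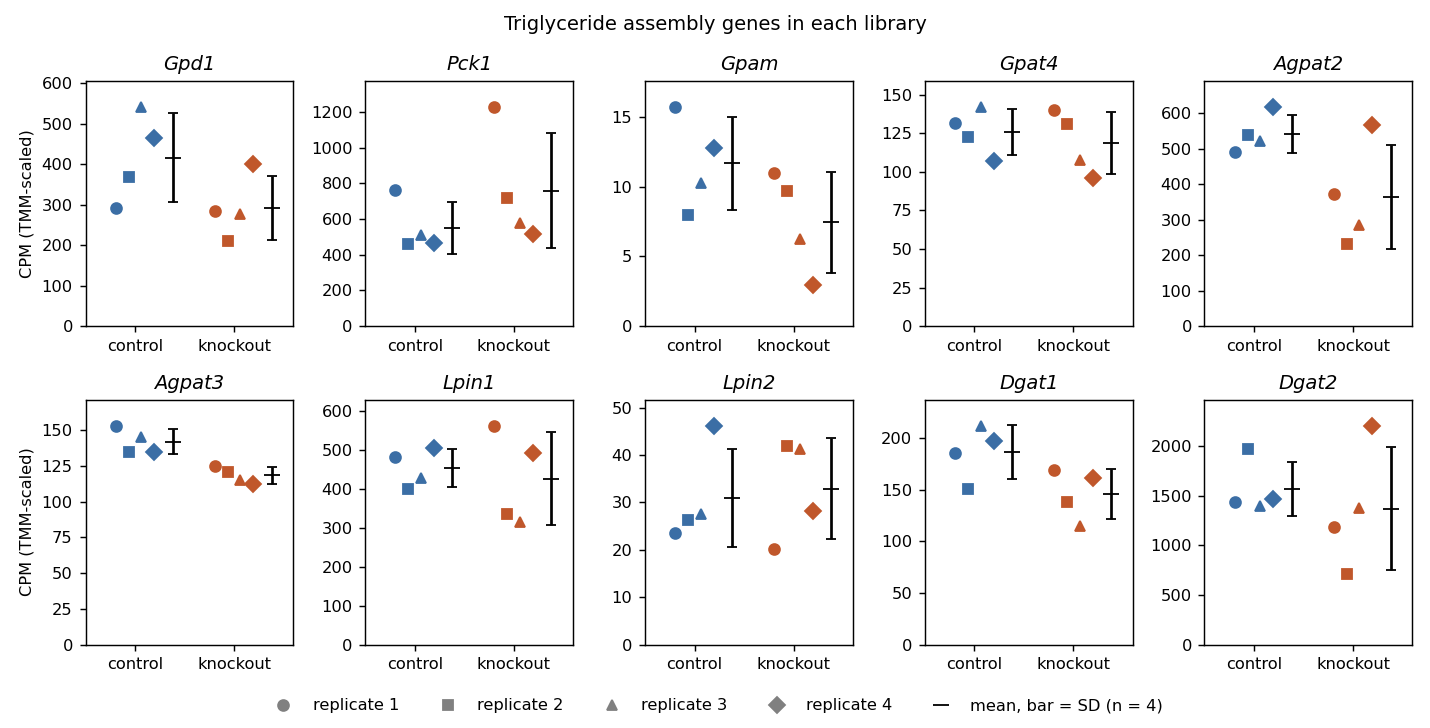
Level of each enzyme gene in CPM (linear axis from 0) in the 4 control and the 4 knockout libraries. Symbols mark the replicate number, which is not stated to pair the groups, and bars show the mean and SD. Agpat3 is the enzyme whose groups do not overlap, while the knockout libraries of Dgat2 run from 713 to 2202 CPM, on both sides of the controls.

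The promoters of 3 of the enzymes are shown because Gpam and Agpat2 had the lowest and Pck1 the highest fitted fold change of the set. Each is the 250 bases before the start site nearest the 5′ end of the RefSeq gene (build GRCm38.p6), written 5′ to 3′ on the strand of the gene. The start site lay 0 bases from that end for Pck1 and Agpat2 and 81 bases from it for Gpam. In the Pck1 window, 25 bases lay in GENCODE exons of the gene. They lie at chr2:173152823-173153072 (plus strand) for Pck1, chr19:55127239-55127488 (minus strand) for Gpam and chr2:26604418-26604667 (minus strand) for Agpat2. Capitals mark matches to the GC box GGGCGG, the CCAAT box or the E-box CACGTG on either strand.
Pck1: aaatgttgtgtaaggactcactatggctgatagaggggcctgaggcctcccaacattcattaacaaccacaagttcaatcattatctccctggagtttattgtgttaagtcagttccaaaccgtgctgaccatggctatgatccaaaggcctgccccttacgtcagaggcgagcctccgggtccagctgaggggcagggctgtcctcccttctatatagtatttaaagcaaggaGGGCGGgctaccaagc
Gpam: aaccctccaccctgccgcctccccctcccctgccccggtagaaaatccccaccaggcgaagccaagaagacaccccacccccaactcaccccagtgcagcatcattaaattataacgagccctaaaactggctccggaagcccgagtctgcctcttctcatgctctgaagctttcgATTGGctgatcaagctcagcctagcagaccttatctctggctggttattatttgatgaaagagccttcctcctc
Agpat2: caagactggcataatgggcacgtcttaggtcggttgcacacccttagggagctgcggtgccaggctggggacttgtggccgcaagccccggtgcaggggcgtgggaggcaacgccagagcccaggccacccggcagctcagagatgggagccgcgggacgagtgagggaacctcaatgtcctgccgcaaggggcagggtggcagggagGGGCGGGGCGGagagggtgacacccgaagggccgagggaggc
The Pck1 window held 1 GC box, which begins 16 bases before the start and so lies in the exonic bases. In the Gpam window the match is 1 CCAAT box on the opposite strand, 74 bases before the start. Agpat2 had 2 GC boxes that share a base, 42 and 37 bases before the start. None of the 3 held an E-box. Among 27025 windows of the same length, 1 per gene, 33.0% held a GC box, 34.5% a CCAAT box and 6.0% an E-box, so these matches are common ones. Of the other enzymes, windows were available for Agpat3, Lpin1 and Lpin2. Their start sites lay 797, 42937 and 0 bases from the 5′ end of the RefSeq gene.

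Supply of glycerol phosphate was represented by 2 genes with opposite signs in the fit. Gpd1 (chromosome 15, 99717515 to 99725005) encodes the cytosolic glycerol-3-phosphate dehydrogenase, which makes glycerol phosphate from a glycolytic intermediate. It was at 291, 369, 541 and 465 CPM in control replicates 1 to 4 and at 285, 210, 276 and 400 CPM in knockout replicates 1 to 4. Of the knockout libraries 3 lay below every control, but replicate 4 lay within the control range, so the groups overlapped. The means were 417 ± 110 and 293 ± 78.7 CPM (SD, n = 4 each), and the log2 fold change was -0.51 (standard error 0.22, 95% interval -1.0 to -0.01, edgeR unadjusted p = 0.0465, adjusted p = 0.775). Pck1 (chromosome 2, 173153048 to 173159273) encodes the cytosolic phosphoenolpyruvate carboxykinase, through which fat cells can make glycerol phosphate from pyruvate. Its controls were at 763, 459, 512 and 465 CPM and its knockouts at 1226, 718, 576 and 513 CPM. The highest value was that of knockout replicate 1, and the other 3 knockout libraries lay within the control range. The log2 fold change was 0.46 (standard error 0.29, 95% interval -0.21 to 1.13, edgeR adjusted p = 0.910), and it was 0.131 without knockout replicate 1.

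For the first acylation, Gpam encodes a mitochondrial enzyme and Gpat4 an enzyme of the endoplasmic reticulum. Gpat3, which is not among the 10, encodes another and is given below with other genes of the pathway. Gpam (chromosome 19, 55067268 to 55127238) was counted sparsely, with 9 to 45 estimated counts per library. Its levels were 15.7, 7.95, 10.3 and 12.8 CPM in the controls and 11, 9.68, 6.21 and 2.95 CPM in the knockouts. Knockout replicates 3 and 4 lay below every control and the other 2 lay among them. Its log2 fold change of -0.67 was the lowest of the 10 and had the largest standard error, 0.39 (95% interval -1.51 to 0.16, edgeR adjusted p = 0.866). Without knockout replicate 4 it was -0.393. Gpat4 (chromosome 8, 23171265 to 23208346) had overlapping groups, with controls from 107 to 142 CPM and knockouts from 96.4 to 140 CPM. The fold change was -0.09 on the log2 scale (standard error 0.14, edgeR adjusted p = 0.951), with a 95% interval of -0.39 to 0.20.

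Both acyltransferases of the next step had a lower fitted level in the knockout, and they did so in different ways. Agpat2 (chromosome 2, 26593057 to 26604417), the isoform that fat cells depend on, was at 492, 539, 522 and 617 CPM in the controls and at 371, 232, 286 and 567 CPM in the knockouts. Knockout replicates 1 to 3 lay below every control, and replicate 4 lay among the controls. The means of 543 ± 53.4 and 364 ± 147 CPM (SD, n = 4 each) differed by -0.57 on the log2 scale of the fit (standard error 0.24, 95% interval -1.12 to -0.03, edgeR unadjusted p = 0.0398, adjusted p = 0.743). Without knockout replicate 4 the fold change was -0.873 and the edgeR adjusted p 0.0636, the lowest that any enzyme reached in the fits that left out 1 library. Without knockout replicate 2 they were -0.409 and 0.943. The last 64 bases of Agpat2 overlap those of Egfl7 on the opposite strand, and whether the counting used strand is not given in the sources used here. The Egfl7 controls were at 39.1 to 62.9 CPM and the knockouts at 56.8 to 77.9 CPM.

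Agpat3 (chromosome 10, 78269178 to 78352489), which also acts on lysophospholipids, showed a smaller and far more even difference. It was at 153, 135, 145 and 135 CPM in control replicates 1 to 4 and at 125, 121, 115 and 112 CPM in knockout replicates 1 to 4. All 4 knockouts lay below all 4 controls, and Agpat3 was the 1 enzyme of the 10 with no overlap, where 1.72% of all tested genes separated in that direction. None was separated upward, as 2.52% of all tested genes were. The means were 142 ± 8.98 and 118 ± 6.20 CPM (SD, n = 4 each), and the log2 fold change was -0.27 (standard error 0.10, 95% interval -0.49 to -0.04, edgeR unadjusted p = 0.0232, adjusted p = 0.689). When 1 library was left out the fold change stayed between -0.293 and -0.226.

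The phosphatidate phosphatases differed, with Gpat4, least between the group means. Lpin1 (chromosome 12, 16535669 to 16610966) encodes lipin 1, which also acts in the nucleus as a coactivator. The controls were at 481, 400, 427 and 505 CPM and the knockouts at 561, 335, 315 and 491 CPM. The knockouts thus straddled the controls, with replicate 1 above them all and replicates 2 and 3 below them all. The log2 fold change was -0.09 (standard error 0.17, 95% interval -0.47 to 0.29, edgeR adjusted p = 0.968). Lpin2 (chromosome 17, 71182560 to 71249817), a related phosphatase, was at 23.5, 26.4, 27.5 and 46.2 CPM in the controls and 20.2, 42.0, 41.3 and 28.3 CPM in the knockouts. Its fold change of 0.13 on the log2 scale (standard error 0.26, 95% interval -0.44 to 0.70, edgeR adjusted p = 0.975) was within the spread of the replicates. The sign of both lipin genes turned when knockout replicate 2 or knockout replicate 3 was left out, to 0.008 and 0.028 for Lpin1 and to -0.009 and -0.003 for Lpin2.

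The last step can be taken by DGAT1 or by DGAT2, which are unrelated in sequence. Dgat1 (chromosome 15, 76502015 to 76511953) was at 186, 151, 212 and 197 CPM in the controls and at 169, 138, 115 and 161 CPM in the knockouts. Knockout replicates 2 and 3 lay below every control and the other 2 overlapped control replicate 2. Means of 186 ± 26.2 and 146 ± 24.6 CPM (SD, n = 4 each) differed by -0.35 on the log2 scale of the fit (standard error 0.14, 95% interval -0.66 to -0.05, edgeR unadjusted p = 0.0265, adjusted p = 0.695). Dgat2 (chromosome 7, 99153658 to 99182719), whose product is tied to the storage of newly made fatty acids, was at 1438, 1971, 1397 and 1464 CPM in the controls and at 1183, 713, 1378 and 2202 CPM in the knockouts. Of the knockouts 3 lay below every control and replicate 4 lay above every control, so that the group spanned 3.09-fold against 1.41-fold in the controls. The log2 fold change was -0.19 (standard error 0.31, 95% interval -0.89 to 0.50, edgeR adjusted p = 0.957). It was -0.523 without knockout replicate 4 and turned to 0.019 without knockout replicate 2.

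**Figure D2:**
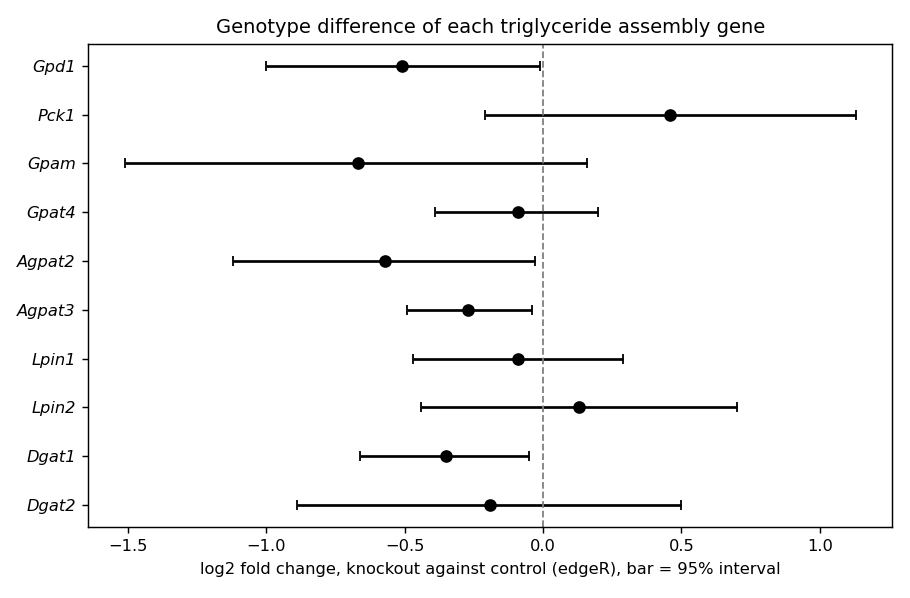
Log2 fold change of each enzyme gene, knockout against control, from edgeR (x axis), with bars for the 95% interval before any adjustment over genes. The intervals of Gpd1, Agpat2, Agpat3 and Dgat1 end below 0, those of the other 6 genes include 0, and none of the 10 passed after adjustment.

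The knockout libraries differed among themselves more than the controls in most of these genes. The SD of log2 CPM was larger in the knockout than in the control group for 8 of the 10 enzymes, beside 46.8% of all tested genes; the exceptions were Gpd1 and Agpat3. For Agpat2 the SD was 0.56 in the knockout and 0.14 in the control group, for Dgat2 0.67 and 0.23, and for Lpin1 0.41 and 0.15. The enzymes did not order the knockout libraries alike. Gpd1, Agpat2 and Dgat2 were lowest in replicate 2 and highest in replicate 4, while Pck1, Gpam, Gpat4 and Agpat3 were highest in replicate 1 and lowest in replicate 4. These orders were noted after the values had been seen and were not tested.

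Averaged over the 10 enzymes, log2 CPM relative to the control mean was -0.07, -0.36, -0.36 and -0.23 in knockout replicates 1 to 4, and 0.02, -0.13, 0.02 and 0.09 in control replicates 1 to 4. Knockout replicates 2 and 3 were thus the lowest libraries and knockout replicate 1 lay within the control range. Below every control library lay 5, 6, 7 and 3 of the 10 enzymes in knockout replicates 1 to 4, beside 19.1 to 21% of all tested genes. Above every control lay 2, 0, 0 and 1, beside 18.8 to 21.8% of all tested genes.

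For each part of the chain the 2 listed enzymes were set against each other as a ratio in every library. This measure does not depend on the scaling of libraries. Pck1 and Gpd1 both serve the supply of glycerol phosphate, but they do not encode alternative enzymes of 1 reaction. The ratios are compared between libraries and are not read as ratios of molecules. Pck1 over Gpd1 differed most: the log2 ratio was 1.39, 0.31, -0.08 and 0.00 in the controls and 2.10, 1.77, 1.06 and 0.36 in the knockouts. The difference of 0.92 was not past the spread of the libraries (two-sided exact permutation p = 0.114, adjusted p = 0.429 over the 5 ratios; 4 libraries against 4 cannot give a p below 0.0286). The Gpam over Gpat4 ratio had means of -3.44 ± 0.46 for controls and -4.10 ± 0.59 for knockouts (SD, n = 4; p = 0.171 by exact permutation, adjusted 0.429). For Agpat2 over Agpat3 it was 1.93 ± 0.22 and 1.54 ± 0.59 (SD, n = 4; p = 0.286 by exact permutation, adjusted 0.476). Lpin1 over Lpin2 differed by -0.21 and Dgat2 over Dgat1 by 0.06, with exact permutation p-values of 0.686 and 0.914. With 5 ratios a single step could not pass after adjustment, since full separation of 1 ratio would give an adjusted p of 0.143 and 3 separated ratios would be needed to reach 0.0476.

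**Figure D3:**
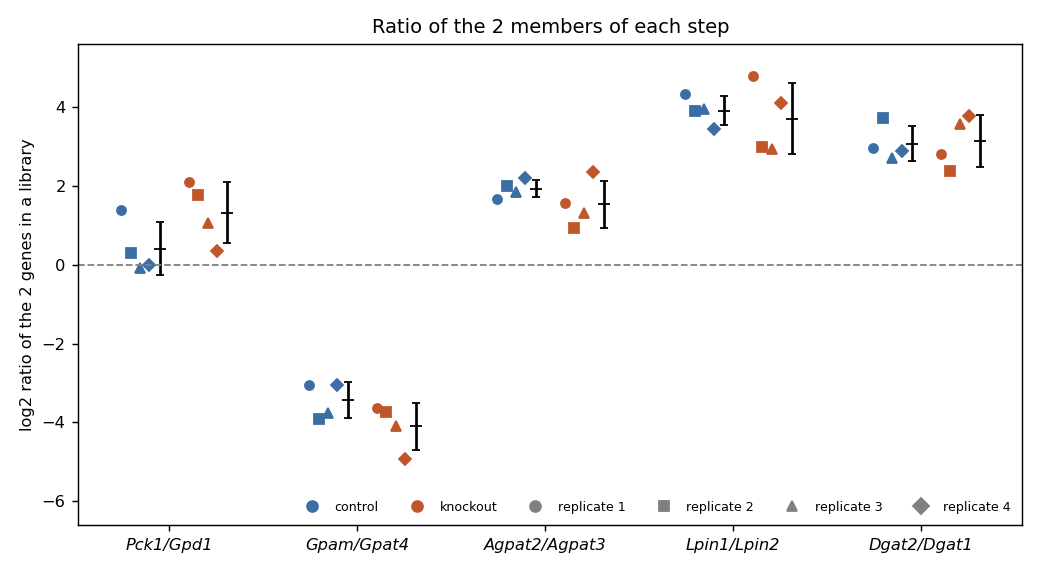
Log2 ratio of the 2 listed enzyme genes of each part of the chain (y axis) in each control and knockout library, with the mean and SD of each group (n = 4). The Pck1/Gpd1 ratio averages 0.41 for controls and 1.32 for knockouts, and in all 5 ratios the groups overlap.

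Other genes of the pathway did not pass either. Of 21 listed, 19 were tested, and 0 passed in edgeR after adjustment. The fitted level in the knockout was lower for 14 and higher for 5, beside 50.3% of all tested genes lower. The median log2 fold change was -0.06. At an unadjusted p under 0.05, 3 were lower and 0 higher, beside 2.87% and 3.52% of all tested genes. Gpat3, a further glycerol phosphate acyltransferase of fat cells, averaged 153 ± 17.4 CPM for controls and 123 ± 25.1 CPM for knockouts (log2 fold change -0.33, edgeR adjusted p = 0.742; SD, n = 4). Mogat1, a monoacylglycerol acyltransferase, averaged 65.6 ± 15.4 and 48.7 ± 7.57 CPM (log2 fold change -0.44, edgeR adjusted p = 0.695; SD, n = 4). Acsl1, which activates fatty acids by joining them to coenzyme A, averaged 579 ± 102 and 435 ± 96.5 CPM (log2 fold change -0.41, edgeR adjusted p = 0.701; SD, n = 4). All 3 overlapped between the genotypes.

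The branch from phosphatidate and diacylglycerol to phospholipids was divided evenly, with 9 of 18 tested genes lower, 9 higher, 0 past the threshold in edgeR and a median log2 fold change of 0.00. At an unadjusted p under 0.05, 2 were lower and 0 higher, beside 2.87% and 3.52% of all tested genes. Pcyt2, which makes the activated ethanolamine for phosphatidylethanolamine, was at 26.6, 31.8, 31.4 and 31.4 CPM in the controls and 25.2, 24.6, 20.9 and 23.3 CPM in the knockouts. Its groups did not overlap (log2 fold change -0.36, edgeR adjusted p = 0.743), where 1.72% of all tested genes separated in that direction. Chpt1, the cholinephosphotransferase that turns diacylglycerol into phosphatidylcholine, ranged from 1462 to 1939 CPM in the controls and from 1312 to 1629 CPM in the knockouts (log2 fold change -0.28, edgeR adjusted p = 0.758).

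Among 19 regulators of the pathway, 15 had a lower and 4 a higher fitted level in the knockout, beside 50.3% of all tested genes lower. In edgeR 0 passed after adjustment, and the median log2 fold change was -0.12. The 2 with an unadjusted p under 0.05 were both lower, as 2.87% of all tested genes were. Both had groups that did not overlap, where 1.72% of all tested genes separated in that direction. Srebf1, the gene of the transcription factor SREBP1 that drives lipid synthesis genes, was at 200, 202, 188 and 235 CPM in the controls and at 168, 133, 152 and 181 CPM in the knockouts (log2 fold change -0.38, standard error 0.12, edgeR unadjusted p = 0.00795, adjusted p = 0.507). Klf15, a zinc-finger factor active in fat cells and in fasting metabolism, was at 46.1, 57.7, 53.4 and 57.7 CPM in the controls and at 41.2, 39.9, 34.1 and 40.3 CPM in the knockouts (log2 fold change -0.46, standard error 0.14, edgeR unadjusted p = 0.00435, adjusted p = 0.438). Pparg, the main regulator of the adipocyte state, averaged 226 ± 26.8 and 192 ± 8.11 CPM (SD, n = 4; edgeR adjusted p = 0.802). The 16 adipocyte markers, which share Acsl1 and Pparg with these lists, had a median of -0.14.

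**Figure D4:**
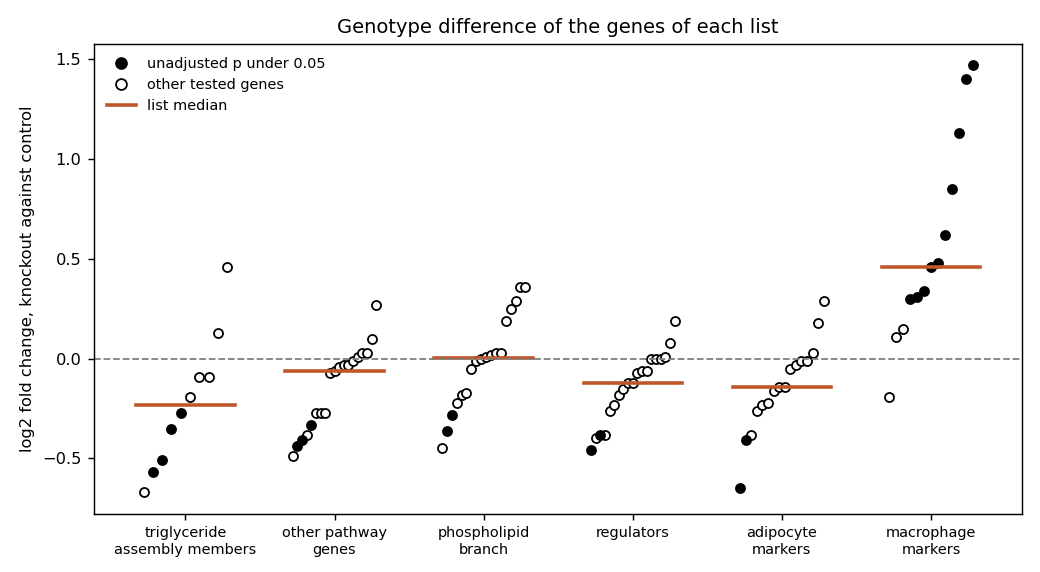
Log2 fold change, knockout against control (y axis), of every tested gene of the enzyme set, the related lists and the 2 marker lists; filled points have an unadjusted p under 0.05 and lines mark the medians. The medians are -0.23 for the enzymes, -0.06 for other pathway genes, 0.00 for the phospholipid branch, -0.12 for regulators, -0.14 for adipocyte and 0.46 for macrophage markers.

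Genes with a profile most like the mean of the 10 enzymes were sought among 8234 tested genes with a mean log2 CPM of at least 4. Likeness was the mean absolute difference in centred log2 CPM over the 8 libraries, whose median over those genes was 0.223. The 5 closest were the ATP synthase subunit gene Atp5g3 at 0.044, the enoyl reductase gene Tecr of fatty acid elongation at 0.048, Tex264 and the complex I subunit gene Ndufs8 at 0.054 each, and the Mediator subunit gene Med22 at 0.060. Their log2 fold changes lay between -0.34 and -0.17, and none passed (edgeR adjusted p of 0.603 to 0.934). The enzymes were not chosen by likeness, as these 5 genes were, so their values are not set against those of the 5. The enzymes' differences ran from 0.094 for Agpat3 and 0.101 for Dgat1 to 0.431 for Lpin2 and 0.442 for Gpam. The mean profile was made from the enzymes themselves, which tends to lower their differences, and Gpam was below the level required of the 8234 genes. The enzymes' differences are therefore not compared with the median of 0.223.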

How the data were processed

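The authors deposited 1 table of estimated counts per gene, not normalized, for 8 libraries; Salmon and the build GRCm38 are named in the submitters' processing notes, while versions, annotation and any molecular identifiers are not given in the sources used here. Of the values above 0, 59.6% were whole. Identifiers were matched without version to GENCODE M21 (34652 of 34866). Counts were rounded and tested in edgeR 4.0.16 (R 4.3.3) by the robust quasi-likelihood F test on genotype, with TMM factors, filterByExpr and Benjamini-Hochberg adjustment over 12480 genes. CPM used TMM-scaled library sizes, and log2 CPM a prior count of 0.5. Totals ranged from 1538427 to 3053565, so 3 counts, the limit that a count of 0 allows, are 0.982 to 1.95 CPM (counting error only). Replicate pairs differed by more than sampling noise (chi-square per degree of freedom 4.48 to 9.40).

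Ratios of 2 genes were compared by exact permutation over libraries. Alternatives were DESeq2 1.42.0, limma-voom 3.58.1, factors by RLE or by upper quartile, all genes without a filter, a replicate block, a prior count of 2 and leaving out each library. The edgeR test was also run on simulated counts. The members, lists and tests were chosen with earlier results of these data known. Named are the 10 enzymes, genes of the related lists with an unadjusted p under 0.05, and the 5 genes closest to the mean profile; other genes were named after their values were seen. Matching promoter windows came from RefSeq (GRCm38.p6); no protein sequence was used here.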

Additional observations from a re-analysis of the deposited data

Results flagged for a closer look

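In groups of 4 libraries, a value was marked where its gap to the nearest library exceeded Dixon's 95% critical value relative to the whole range. Among 30 sets (10 enzymes and 5 ratios in each genotype) 1 was marked, where chance gives 1.5. Control replicate 2 held Dgat2 at 1971 CPM while the remaining 3 controls lay at 1397 to 1464 CPM, a gap of 0.884 of the range. Without that library the Dgat2 log2 fold change went from -0.195 to -0.065 and the difference in the Dgat2/Dgat1 ratio from 0.063 to 0.277; neither passed with or without it.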

How the results depend on the processing

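No enzyme passed the threshold under any of the settings run, and 8 of the 10 were lower under each, except 7 without knockout replicate 2. Their median log2 fold change lay between -0.310 and -0.228 under the other settings and between -0.316 and -0.210 when 1 library was left out. The count of all genes called, 21, was 58 without the low-count filter and 55 with DESeq2; leaving out 1 library gave 4 (without control replicate 2) to 43 (without control replicate 4). The cause was not tested.

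Leaving out 1 library turned the sign of Dgat2 (range -0.523 to 0.019), Lpin1 (-0.249 to 0.028) and Lpin2 (-0.009 to 0.363), and of the Dgat2/Dgat1 (-0.149 to 0.318) and Lpin1/Lpin2 (-0.570 to 0.048) ratios, none of which had passed. The other enzymes and ratios kept their sign, but some moved by over 1.5 times from the value with all 8 libraries. Gpat4 ranged from -0.176 to -0.003, Agpat2 from -0.873 to -0.409, Gpam from -0.912 to -0.393 and Pck1 from 0.131 to 0.663. The Agpat2/Agpat3 ratio ranged from -0.658 to -0.189 and the Gpam/Gpat4 ratio from -0.812 to -0.375. Others moved less from that value: Gpd1 ranged from -0.695 to -0.349, Dgat1 from -0.443 to -0.254 and the Pck1/Gpd1 ratio from 0.658 to 1.246.

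A replicate block in the model left 6 genes and 0 enzymes past the threshold; Pck1 then joined the 4 lower enzymes at an unadjusted p under 0.05, as the 1 higher. Libraries with the same number correlated, as deviations from the group means, at 0.25, -0.06, -0.01 and -0.24. These values were not compared with those of unlike numbers, so they cannot decide whether the numbers pair samples. Gpam had 9 to 45 counts per library; the part of depth in its spread was not tested.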

Other observations

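Insig1, which holds SREBP factors back in the endoplasmic reticulum and is itself a target of them, was picked out after its values had been seen because of its wide range within the knockout group. It was at 235, 125, 203 and 596 CPM in knockout replicates 1 to 4 and at 214, 312, 244 and 444 CPM in control replicates 1 to 4 (log2 fold change -0.06, standard error 0.52, edgeR adjusted p = 0.996). Its lowest and highest knockout libraries, replicates 2 and 4, were those of Gpd1, Agpat2 and Dgat2. By contrast, Pck1, Gpam, Gpat4 and Agpat3 were lowest in knockout replicate 4. Among the controls Insig1 was highest in replicate 4, as Agpat2 was, but Gpd1 was highest in replicate 3 and Dgat2 in replicate 2. The match was not tested.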
